A study of Mus musculus with 18 samples.

Results

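The Hippo kinase core and its transcriptional coactivators are described here as 10 genes, Stk3, Stk4, Sav1, Mob1a, Mob1b, Nf2, Lats1, Lats2, Yap1 and Wwtr1, which were taken by symbol from the deposited gene counts and make up 10 of 23238 distinct symbols. The 18 mouse libraries came from the small intestine of adult C57BL/6J mice and fall into 4 groups. PDGFRb+ intestinal stromal cells (IntSCs) were sorted by their tdTomato reporter signal. Lacteal lymphatic endothelial cells (LECs), which line the lymphatic capillary of each villus, were sorted as CD45-, CD31+ and podoplanin+ cells. Both WT groups (6 IntSC and 4 LEC libraries) are labelled with Cre-ERT2 under the Pdgfrb promoter and the Tomato reporter. Both KO groups (5 IntSC and 3 LEC libraries) are labelled with the same alleles plus Lats1f/f and Lats2 f/f. Every group was therefore labelled as carrying Cre and reporter, and the floxed alleles separate KO from WT. Cre was activated with tamoxifen, and the reporter marked pericytes, fibroblasts and a subset of longitudinal smooth muscle cells, so LECs of the KO mice were not the targeted cells. The libraries of each group number as many as the mice that the study describes per group, gathered over several independent experiments. The labels tie no library to a mouse or an experiment, so the p-values measure only the spread between these libraries.

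In the Hippo pathway, the kinases MST1 and MST2, bound by the scaffold SAV1, phosphorylate the kinases LATS1 and LATS2 and their MOB1 cofactors. NF2 is a membrane-associated activator of this kinase core. Active LATS phosphorylates the coactivators YAP and TAZ, which are then kept in the cytoplasm or degraded. Unphosphorylated YAP and TAZ enter the nucleus and act through TEAD transcription factors, and in the gut they are known for roles in regeneration and in the stroma around the crypts and villi. Much of this control acts on proteins, whereas the libraries measured 3′ ends of transcripts.

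Total counts were 5361250 to 10549233 per library, where 3 reads equalled 0.284 to 0.560 CPM (the reads of a gene scaled to a common library total), and the ribosomal transcript Rn45s took 7.02% to 24.4% of them. The CPM levels used TMM library factors, whereas these floors of 3 reads per library used total counts without them. Since the kit counts transcript 3′ ends, levels are compared between groups and not between genes. Prox1, the transcription factor that defines LECs, averaged 52.4 and 67.7 CPM in WT and KO LECs and 0.0793 and 0.0804 CPM in WT and KO IntSCs. Pdgfrb averaged 484.2 ± 163.6 CPM in WT IntSCs (SD, n = 6), 877.7 ± 187.3 CPM in KO IntSCs (n = 5), 28.3 ± 29.5 CPM in WT LECs (n = 4) and 10.6 ± 10.2 CPM in KO LECs (n = 3). The 10 stromal markers include Pdpn, the gene of podoplanin, by which LECs were sorted. Of these 10, 9 passed the test as lower in WT LECs than in WT IntSCs. In KO LECs 10 were lower than in KO IntSCs. Of 10 lymphatic endothelial markers, 9 were higher in each of these comparisons, and Esam was lower in the second. The libraries of the KO groups also held more Paneth cell RNA: the summed level of 5 Paneth markers was 38.1 to 112.5 CPM in KO IntSCs against 0.271 to 6.32 CPM in WT IntSCs, and 11.8 to 87.6 CPM in KO LECs against 0 to 0.740 CPM in WT LECs. The part of this RNA in the genotype comparisons was not tested.

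The TEAD recognition core CATTCC, read on both strands, was looked up in RefSeq promoter windows of the build GRCm38.p6, each running from 250 bases before to 50 bases after a transcript start. It was present in 4817 of 32851 windows over all genes (14.7%) and in 6 of 12 windows of the members. These 6 windows belonged to 5 of the 9 members that had a window, namely Lats2, Yap1, Wwtr1, Sav1 and Mob1a. Stk3 had no window in the table. The matches in the genes most discussed here are shown because YAP and TAZ have no DNA-binding domain of their own and reach promoters through TEAD. They are given 5′ to 3′ on the gene's strand with the match in capitals.
Lats2: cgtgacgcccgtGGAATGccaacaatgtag
Yap1: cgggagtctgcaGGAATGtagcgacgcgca
Wwtr1: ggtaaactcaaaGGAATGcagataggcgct
Sav1: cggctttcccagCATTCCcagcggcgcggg
The Lats2 sequence lies at chr14:57746102-57746131 on the minus strand, with the match starting at position 4 relative to the transcript start. The Yap1 sequence lies at chr9:8004720-8004749 on the minus strand with the match at -141, and the Sav1 sequence at chr12:69987091-69987120 on the minus strand with the match at -106. The Wwtr1 sequence, at chr3:57576029-57576058 on the minus strand, was shared by the windows of several annotated starts, with the match at -136 or -170. A match of these letters is a description of the window and not a measured binding site.

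LATS1 and LATS2 are the paralogous kinases that phosphorylate YAP and TAZ, and they are the genes floxed in the KO groups. Neither transcript passed the test as lower in the libraries labelled KO, in IntSCs or in LECs. Lats1 (mm10 chromosome 10, 7681214 to 7716460, plus strand) ranged from 0 through a median of 20.03 to 30.1 CPM in WT IntSCs, and measured 15.8, 16.7, 13.6, 21.2 and 12.9 CPM in KO IntSCs. All 5 KO values lay inside the WT range, whose lowest library, replicate 2, had 0 Lats1 reads. Before library factors that count allows up to 0.511 CPM. The difference was -0.12 on the log2 scale (95% interval -1.52 to 1.28, edgeR adjusted p = 0.987). In LECs, Lats1 measured 9.80, 5.55, 3.28 and 13.5 CPM in WT and 6.70, 15.0 and 13.6 CPM in KO libraries, with overlapping ranges and a difference of 0.63.

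Lats2 (chromosome 14, 57689662 to 57758388, minus strand) ranged from 41.5 through a median of 68.1 to 113.1 CPM in WT IntSCs and measured 112.6, 80.0, 120.5, 130.0 and 127.5 CPM in KO IntSCs. Of the 5 KO libraries, 3 lay above every WT library, while WT replicate 3 exceeded the other KO libraries. The log2 difference was 0.65 ± 0.23 (SE; interval 0.16 to 1.14), and it did not pass after adjustment over all genes (edgeR adjusted p = 0.252; at least 0.0881 under each alternative). Lats2 measured 143.6, 129.3, 110.5 and 72.1 CPM in WT LECs and 63.8, 13.7 and 126.3 CPM in KO LECs. KO LEC replicate 2 was the lowest of all 18 libraries, and replicate 3 lay within the WT range. The LEC difference was -0.67 (interval -1.92 to 0.57, adjusted p of at least 0.991 for all members tested in LECs).

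The KO-minus-WT difference of Lats2 in IntSCs exceeded that in LECs by 1.39 on the log2 scale (interval 0.17 to 2.62), where the median over all genes was 0.24. The edgeR adjusted p was 0.241 (0.0433 to 0.757 over its alternatives), and the call was made when KO LEC replicate 3 was left out, at 2.20. The labels do not say which exons were floxed. A 3′ count outside the deleted exons does not report the deletion, so these values check neither the genotype labels nor the loss of LATS protein. In the GENCODE annotation of the same build, the exons of Lats2 overlap those of the same-strand gene Gm49361, which is not among the symbols of the count tables.

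MST2 and MST1, encoded by Stk3 and Stk4, are the kinases upstream of LATS. Stk3 (chromosome 15, 34875496 to 35178921, minus strand) ranged from 7.16 through 15.5 to 27.8 CPM in WT IntSCs and from 10.2 to 21.5 CPM in KO IntSCs, a range inside the WT one. In LECs it split within each group, at 17.7, 16.8, 2.62 and 0.20 CPM in WT and 0, 11.8 and 12.4 CPM in KO libraries. The 0 in KO LEC replicate 1 allows up to 0.435 CPM before library factors. No difference of Stk3 between groups passed the test.

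Stk4 (chromosome 2, 164070322 to 164155524, plus strand) ranged from 20.7 through 25.3 to 36.6 CPM in WT IntSCs and measured 35.4, 15.7, 36.2, 35.5 and 21.0 CPM in KO IntSCs. The WT LECs measured 14.4, 20.5, 4.97 and 10.3 CPM. All 4 lay below all 6 WT IntSC libraries, which 11.4% of all genes tested did in this direction. The log2 difference was -1.10 (interval -2.26 to 0.06) and did not pass (edgeR adjusted p = 0.179). KO LECs measured 30.9, 51.0 and 0.248 CPM, so that the highest and the lowest Stk4 values of the series were both KO LEC libraries. Replicate 3, the lowest, held 2 reads.

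Sav1, the scaffold that joins MST to LATS (chromosome 12, 69965012 to 69987002, minus strand), ranged from 8.13 through 19.1 to 28.3 CPM in WT IntSCs and measured 31.8, 10.1, 52.9, 36.8 and 31.7 CPM in KO IntSCs. Of the 5 KO libraries, 4 lay above every WT library, and replicate 2 lay near the bottom of the WT range. The difference was 0.86 (interval -0.02 to 1.73, edgeR adjusted p = 0.523). In LECs Sav1 measured 36.3, 30.0, 27.5 and 12.8 CPM in WT and 30.9, 50.4 and 53.0 CPM in KO libraries, a difference of 0.82 that did not pass. The KO mean exceeded the WT mean in both cell types, and the difference between the cell types in this respect was 0.10. Exons of Sav1 overlap those of Atl1 on the opposite strand in the annotation, and the strand setting of the counting is not given in the sources used here, so reads of the pair may not be separated.

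MOB1A and MOB1B are the paralogous cofactors that activate LATS. Both were close to the limit of these libraries. Mob1a (chromosome 6, 83326016 to 83343776, plus strand) held 0 to 83 reads per library, 0 to 11.2 CPM in WT IntSCs, 0 to 3.40 CPM in KO IntSCs, 1.40 to 3.90 CPM in WT LECs and 0 to 1.81 CPM in KO LECs, and no difference passed.

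Mob1b (chromosome 5, 88720855 to 88764220, plus strand) ranged from 0 through 0.843 to 2.09 CPM in WT IntSCs, and measured 1.57, 3.15, 3.60, 11.04 and 1.20 CPM in KO IntSCs. It had 1 read in the 4 WT LEC libraries and 0 in the 3 KO LEC libraries together. Every KO IntSC library had reads and no KO LEC library did. With the reads of each group pooled and 3 reads as the KO LEC floor, KO IntSCs were at least 32.8-fold higher (3.94 against 0.120 CPM). This bound leaves out the spread between KO IntSC libraries. The edgeR adjusted p was 0.0192 (0.000349 to 0.215 over its alternatives). Mob1b passed the filter on low counts in this comparison only through its KO IntSC reads, so the adjusted p adds no support beyond the read counts. It was not tested in WT LECs against WT IntSCs or in KO against WT LECs. Of the 148 KO IntSC reads, 74 came from replicate 4. At these depths the absence of reads limits the level and does not show that the transcript is absent. The share of reads that the authors' counting assigned to both Mob1 paralogs is not known.

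Nf2, the membrane-associated activator of the kinase core (chromosome 11, 4765845 to 4849536, minus strand), had group means of 81.3 to 111.2 CPM. It ranged from 82.3 through 100.4 to 127.9 CPM in WT IntSCs and from 74.1 to 123.5 CPM in KO IntSCs. The IntSC difference was -0.02 (interval -0.42 to 0.39), the narrowest interval of the 10 members in that comparison. Nf2 measured 112.8, 121.8, 147.3 and 62.9 CPM in WT LECs and 97.3, 70.8 and 75.7 CPM in KO LECs, with overlapping ranges and a difference of -0.38.

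YAP, encoded by Yap1 (chromosome 9, 7931999 to 8004596, minus strand), and TAZ, encoded by Wwtr1 (chromosome 3, 57455649 to 57575910, minus strand), are the paralogous coactivators at the end of the cascade. Yap1 ranged from 101.3 through 131.9 to 205.2 CPM in WT IntSCs and measured 98.4, 76.4, 118.1, 133.0 and 104.2 CPM in KO IntSCs. The ranges overlapped, with WT replicate 2 above all other libraries of the series. The difference was -0.38 (interval -0.82 to 0.06, edgeR adjusted p = 0.607). In LECs, Yap1 measured 64.2, 133.5, 104.0 and 113.3 CPM in WT and 75.7, 96.6 and 153.0 CPM in KO libraries, a difference of 0.14 (interval -0.70 to 0.98). An opposite-strand gene, Gm20416, overlaps Yap1 exons in the annotation and is not among the symbols of the count tables.

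Wwtr1 was the one member that rose from WT IntSCs to WT LECs by the test. It ranged from 66.2 through 86.3 to 158.2 CPM in WT IntSCs and measured 114.5, 152.5, 198.3 and 238.2 CPM in WT LECs. The ranges overlapped, since WT IntSC replicates 2 and 5 lay above the lowest LEC library. The log2 difference was 0.83 ± 0.28 (SE; interval 0.23 to 1.43; edgeR adjusted p = 0.0446; 0.0170 to 0.156 over its alternatives). This call was lost with DESeq2, with other library factors, without a filter on low counts and when any of 8 of the 10 libraries was left out, at adjusted p up to 0.150. WT LEC replicate 1, the lowest LEC library for Wwtr1, had the highest summed stromal markers of the WT LECs, 2498 against 907 to 1092 CPM in the others. Without it the difference was 0.99, where leaving out each library in turn gave 0.65 to 1.01. The part of stromal RNA in the Wwtr1 values was not tested.

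Among the KO groups, Wwtr1 measured 93.3, 76.0, 62.9, 120.9 and 130.4 CPM in IntSCs and 163.1, 180.4 and 145.8 CPM in LECs. All 3 LEC libraries lay above all 5 IntSC libraries, as did 11.4% of all genes tested. The difference of 0.75 (interval 0.13 to 1.37) had an edgeR adjusted p of 0.0727 (0.0324 to 0.154 over its alternatives). Between genotypes Wwtr1 differed by -0.04 in IntSCs (interval -0.55 to 0.48) and by -0.03 in LECs (interval -0.72 to 0.65). Both intervals contained 0.

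**Figure D1:**
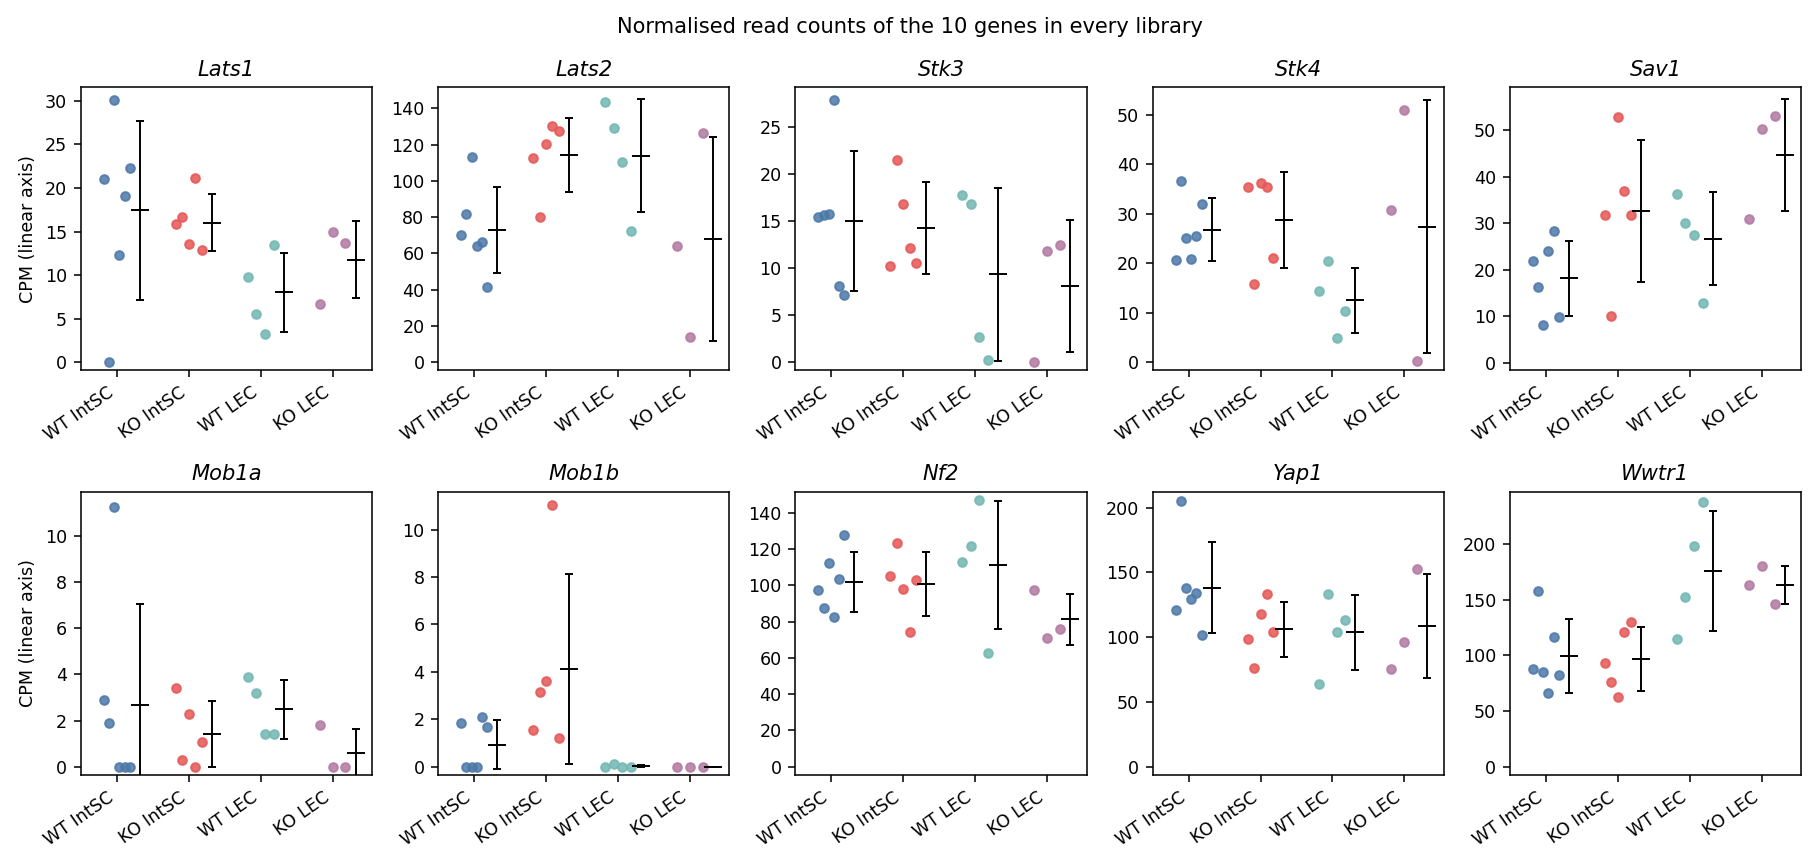
Levels of the 10 members in CPM, with a panel per gene; points are libraries of the 4 groups, and black bars are the mean ± SD, cut at the bottom axis where the SD reaches below it. The Lats2 points of KO IntSCs reach 130.0 CPM against a WT maximum of 113.1 CPM, and the 4 WT LEC points of Stk4 lie below all WT IntSC points.

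Ordered by group mean, the members did not share a pattern. Lats1, Stk3, Mob1a and Yap1 had their highest mean in WT IntSCs, Lats2, Stk4 and Mob1b in KO IntSCs, Nf2 and Wwtr1 in WT LECs, and Sav1 in KO LECs. Neighbouring groups in these orders overlapped for every member, with the exception of WT IntSCs above WT LECs for Stk4. Where a level is lower in a bulk library, fewer cells of a type and less RNA per cell cannot be told apart.

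For the question of whether deletion of the LATS kinases moved the transcripts of their own pathway core, 0 of 10 members passed the test in KO against WT IntSCs with edgeR, DESeq2 and limma-voom, against 1.47% of all 12421 genes tested with edgeR. The count at an unadjusted p under 0.05 was 1 of 10, Lats2, against 9.81% of all genes. The median log2 difference of the members was -0.03, beside 0.00 for all genes. No member had groups that did not overlap, against 2.83% of genes. Among the members, only the interval of Nf2 stayed within 0.5 of 0, so for the other 9 members a difference of that size on the log2 scale remained possible.

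In KO against WT LECs the kinases were not targeted. There 0 of 9 members tested passed with edgeR, DESeq2 and limma-voom, against 0.0658% of all 10639 genes with edgeR. Of the 9, 0 had an unadjusted p under 0.05, against 7.87% of genes. Groups that did not overlap were found for 0 members, against 9.93% of genes. The median of the members was -0.03, the same as that of all genes. Mob1b was not tested there, having 1 read in all. The spread between KO LEC libraries was wide for Stk4, Stk3 and Lats2, with intervals of -1.71 to 4.10, -4.56 to 4.29 and -1.92 to 0.57. The sums of several lists named for other cells did not overlap between these groups. Leukocyte markers were 24.6 to 65.3 CPM in KO and 72.6 to 146.3 CPM in WT LECs. Blood endothelial markers were 1430 to 1860 and 1905 to 2466 CPM, and stromal markers 482 to 810 and 907 to 2498 CPM. These lists are not exclusive to other cells, since the stromal list includes Pdpn, the gene of the LEC sort marker podoplanin. None of these lists had a gene that passed the test, and their part in the members' values was not tested.

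The test of whether the genotype differences themselves differed between IntSCs and LECs passed for 0 of 10 members with edgeR, DESeq2 and limma-voom, against 1.7% of 14015 genes. At an unadjusted p under 0.05 it held 1 of 10, Lats2, against 15.8% of all genes. After Lats2, the better measured genes had values of -0.45 for Yap1, 0.44 for Nf2, 0.10 for Sav1 and 0.07 for Wwtr1, where the median over all genes was 0.24.

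Between the cell types, 1 of 9 members tested passed in WT LECs against WT IntSCs, Wwtr1, in a comparison that called 22.6% of all 12203 genes, and 2 of 9 had an unadjusted p under 0.05 (Wwtr1 and Lats2, the latter at 0.65 with adjusted p = 0.141) against 32.5% of genes. In KO LECs against KO IntSCs 1 of 10 passed, Mob1b, which the filter admitted through KO IntSCs only, against 25.9% of 12758 genes. The median member differences were -0.10 and -0.38, beside -0.04 and -0.21 for all genes. Non-overlapping groups were found for 1 member in WT (Stk4; 21.1% of genes) and for 2 in KO (Mob1b and Wwtr1; 32.3% of genes). Each of these shares of members was below that of all genes. The comparisons of genotypes and of cell types use the same libraries, since each group enters 2 of them.

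**Figure D2:**
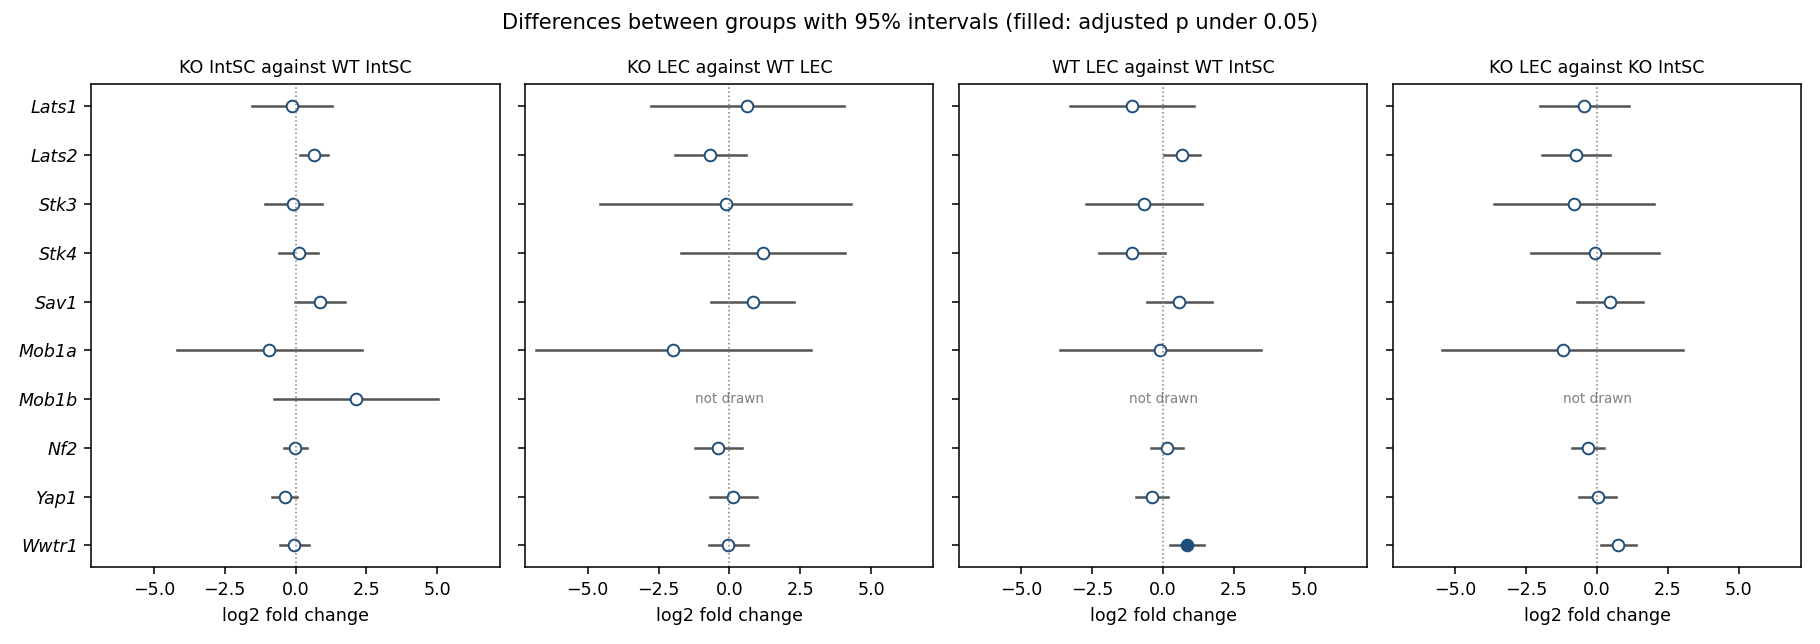
Log2 fold changes of the members with 95% intervals in the 4 comparisons of groups. Filled points have an adjusted p under 0.05. The filled point is Wwtr1 in WT LECs against WT IntSCs at 0.83, and Mob1b is not drawn where it was not tested or where the KO LEC group held 0 reads.

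Ratios of paralogs within a library depend little on its depth and not on its library factor. The log2 ratio of Wwtr1 over Yap1 reads was -0.46, -0.37, -0.71, -0.97, -0.20 and -0.30 in the 6 WT IntSC libraries and 0.83, 0.19, 0.93 and 1.07 in the 4 WT LEC libraries. All WT IntSC values lay below all WT LEC values. Since levels are not compared between genes, the sign of a ratio is not read, only its shift between groups. The mean ratio was 1.26 higher in LECs, with the smallest p that an exact two-sided permutation test of these group sizes can give (p = 0.00952), which became 0.152 after adjustment over the 16 ratio tests. KO IntSCs had -0.08, -0.01, -0.91, -0.14 and 0.32, and KO LECs had 1.11, 0.90 and -0.07. In the KO libraries the ranges overlapped through KO LEC replicate 3 and KO IntSC replicate 5, with a difference of 0.81 (exact permutation p = 0.107, adjusted p = 0.457). Between genotypes the ratio differed by 0.34 in IntSCs (exact permutation p = 0.165, adjusted p = 0.476) and by -0.11 in LECs (adjusted p = 0.971).

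The log2 ratio of Lats2 over Lats1 was 1.73, 9.90, 1.91, 2.38, 1.79 and 0.89 in WT IntSCs, where 9.90 is the library with 0 Lats1 reads. KO IntSCs had 2.83, 2.25, 3.15, 2.61 and 3.30. Apart from WT replicate 2, the WT values lay at or below 2.38 and the KO values at or above 2.25. The mean difference was -0.27 with that library (exact permutation p = 0.918, adjusted p = 0.971) and 1.09 without it (adjusted p = 0.0847), so that 1 library with no Lats1 reads set its sign. WT LECs had 3.87, 4.53, 5.06 and 2.41, and KO LECs had 3.24, -0.12 and 3.20, a difference of -1.86 (exact permutation p = 0.229, adjusted p = 0.522). The ratios of Stk3 over Stk4 and of Mob1b over Mob1a did not pass in any comparison. In all, 0 of 16 exact permutation tests passed after adjustment and 1 had an unadjusted p under 0.05. The group sizes left little room for another outcome: the smallest exact p was 0.0571 for KO against WT LECs and 0.00433 for KO against WT IntSCs, and even the latter could not pass the adjustment as the only small p among 16.

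**Figure D3:**
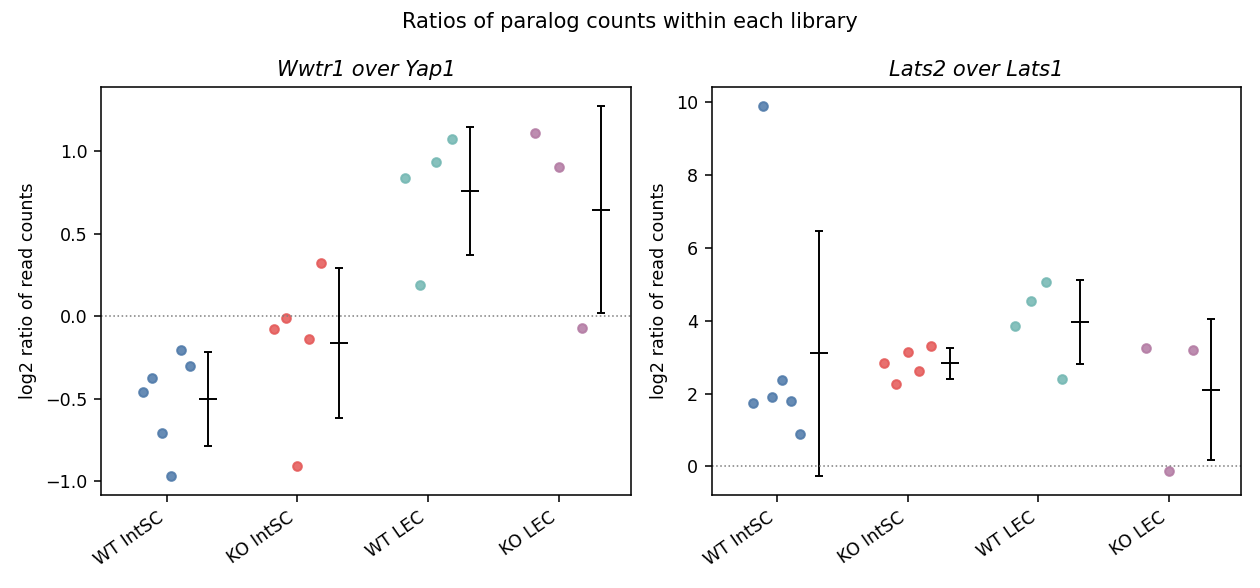
Log2 ratios of the reads of Wwtr1 over Yap1 and of Lats2 over Lats1 (with 0.5 added to each count) in each library of the 4 groups. Points are libraries and black bars are the mean ± SD. The Wwtr1 over Yap1 ratios of all 6 WT IntSC libraries lay below those of all 4 WT LEC libraries. The Lats2 over Lats1 ratio of 9.90 stands apart from the other WT IntSC values of 0.89 to 2.38.

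The rest of the pathway was read from 6 lists with 81 distinct genes, of which the 10 members are not a part. In KO against WT IntSCs 4 of 74 tested genes rose and 0 fell (0.853% and 0.62% of all genes). Of the 74, 12 had an unadjusted p under 0.05, against 9.81% of all genes. The median difference of the 74 was 0.14, beside 0.00 for all genes. Amotl2, an angiomotin that binds YAP and is also a known YAP target, rose by 2.09 ± 0.24 on the log2 scale (SE; edgeR adjusted p = 8.98e-05), from 45.5 ± 18.02 CPM (SD, n = 6) to 193.1 ± 29.7 CPM (n = 5). Crim1, a transmembrane protein among the YAP/TAZ targets, rose by 1.52 ± 0.21 (adjusted p = 0.000284), from 102.3 ± 27.4 to 294.3 ± 47.6 CPM. Frmd6, a FERM-domain scaffold upstream of the kinases, rose by 1.25 ± 0.25 (adjusted p = 0.00910). Wtip, an Ajuba-family protein that inhibits LATS, rose by 0.90 ± 0.20 (adjusted p = 0.0229). These are transcripts around the core, while no member of the core passed in the same libraries.

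The calls of Amotl2, Frmd6 and Wtip were lost when the 4 groups shared 1 estimate of spread, at adjusted p = 0.344, 0.102 and 0.123. Wtip also had an adjusted p of up to 0.0804 when a library was left out. In the same comparison 2 of 3 tested Paneth markers (Lyz1 and Dmbt1) and 1 of 7 tested epithelial markers (Krt19) rose. From the stromal list 1 of 10 fell (Col3a1), and from the blood endothelial list 1 of 6 tested fell (Cd34), against 0.62% of all genes. The other markers of these lists did not pass. The stromal list had a median difference of -0.47 and the blood endothelial list 0.16. The part of cell composition in the pathway values was not tested.

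Of the 21 YAP/TAZ targets, 2 of 20 tested rose in KO IntSCs (Amotl2 and Crim1), against 0.853% of all genes, with a median of 0.48. In KO against WT LECs 0 of 15 passed, with a median of -0.26. The difference between the cell types was called positive for 2 of 21 and negative for 0 (1.42% and 0.278% of all genes), Ctgf and Crim1, with a list median of 1.34 beside 0.24 for all genes. Ctgf, a secreted matricellular protein often used as a readout of YAP, averaged 135.1 ± 85.3 CPM in WT IntSCs (SD, n = 6) and 811.5 ± 469.6 CPM in KO IntSCs (n = 5), and 352.5 ± 198.4 CPM in WT LECs (n = 4) and 51.6 ± 17.9 CPM in KO LECs (n = 3). Its KO-minus-WT difference was 2.59 in IntSCs (edgeR adjusted p = 0.0528) and -2.69 in LECs (adjusted p = 0.0796). Neither passed alone. The summed stromal markers also differed between the LEC groups, at 482 to 810 CPM in KO and 907 to 2498 CPM in WT libraries, with a median marker difference of -1.27, and their part in the Ctgf values was not tested. The difference between the Ctgf values of IntSCs and LECs passed, at 5.36 ± 0.95 (SE; adjusted p = 0.00750). For Crim1 that difference was 1.73 ± 0.39 (adjusted p = 0.0201; 0.00315 to 0.413 over its alternatives).

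In KO against WT LECs no gene of the 66 tested passed in either direction with edgeR. Of all genes, 0.0282% were higher and 0.0376% lower. Of the 66, 6 had an unadjusted p under 0.05, against 7.87% of all genes, and DESeq2 called 1. In WT LECs against WT IntSCs 5 of 72 genes rose and 11 fell (10.3% and 12.3% of all genes), and in KO LECs against KO IntSCs 7 of 75 rose and 17 fell (9.11% and 16.8%). Among upstream kinases and scaffolds, Map4k2, a MAP4K kinase that can phosphorylate LATS, rose in LECs by 4.45 ± 0.67 in WT and by 3.06 ± 0.35 in KO libraries (SE; edgeR adjusted p = 0.000237 and 0.000175). The atypical cadherin Dchs1, the kinase Taok3 and the LATS-related kinase Stk38 fell in WT LECs, with log2 differences of -1.55, -2.09 and -1.56. Of the STRIPAK phosphatase genes, which oppose MST, 1 of 12 passed in the KO comparison, against 25.9% of all genes. It was the catalytic subunit Ppp2ca, at 1.20.

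The 14-3-3 genes Ywhaq and Ywhae, whose proteins hold phosphorylated YAP and TAZ in the cytoplasm, rose in LECs by 1.47 and 0.97 in WT and by 1.46 and 0.83 in KO libraries. Ptpn14, a phosphatase that binds YAP, rose by 2.56 and 2.18. The TEAD family member Tead1 fell in WT LECs by 1.68 on the log2 scale (edgeR adjusted p = 0.0300), a call that was lost under several alternatives. Among the targets, the receptor kinase Axl had log2 differences of -4.02 and -4.32, both past the threshold. Vgll3, a TEAD cofactor, had 0 reads in all LEC libraries. It averaged 21.1 ± 11.3 CPM (SD, n = 5) in KO IntSCs but 3.49 ± 4.51 CPM (n = 6, lowest library 0) in WT IntSCs. In KO LECs against KO IntSCs Vgll3 passed the filter on low counts only through its KO IntSC reads. In the same comparisons 9 of 10 and 10 of 10 stromal markers were lower in LECs, and their part in the pathway values was not tested.

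**Figure D4:**
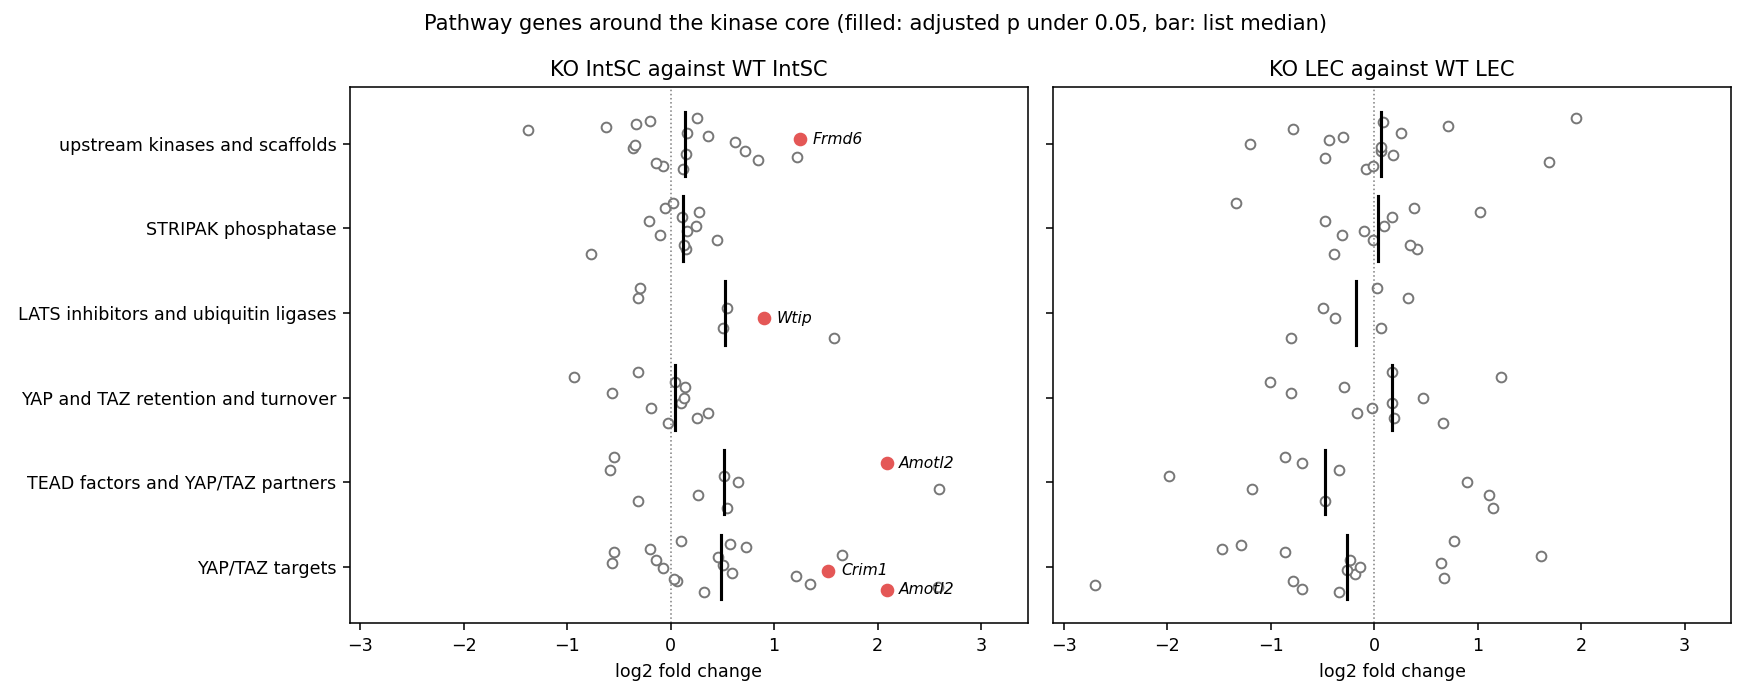
Log2 fold changes of the genes of the 6 pathway lists in KO against WT IntSCs and in KO against WT LECs, a point per tested gene. The YAP/TAZ targets have a median of 0.48 in KO against WT IntSCs and -0.26 in KO against WT LECs. In KO LECs against KO IntSCs, which is not drawn, their median was -2.61.

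The genes whose levels were most like those of Lats2, Yap1 and Wwtr1 are given as a description, as Pearson correlations of log2(CPM + 1). Over all 18 libraries and 8958 genes these were Eed (0.862), Ankrd16 (0.847) and Edem2 (0.804) for Lats2, Nae1 (0.763), 2310015A10Rik (0.747) and Ift81 (0.721) for Yap1, and Ap1s1 (0.840), Sirpa (0.839) and Abhd4 (0.836) for Wwtr1. Over the 11 IntSC libraries and 8731 genes they were Arnt (0.920), Dlc1 (0.919) and 1810026B05Rik (0.907) for Lats2, Map4 (0.910), Anapc13 (0.892) and Cd164 (0.891) for Yap1, and Celf2 (0.911), Rbfox2 (0.902) and Smim15 (0.853) for Wwtr1. None of these genes was shared between the sets. Yap1 and Wwtr1 correlated at 0.06 over the 18 libraries and at 0.50 over the 11 IntSC libraries. The libraries share group structure and depth, and the values carry no test.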

How the data were processed

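RNA of sorted cells was extracted with Trizol, made into libraries with a QuantSeq 3′ kit and sequenced on a NextSeq 500. The authors deposited 1 table of read counts per library, with 23282 rows and no normalization. The submitters' processing notes name Bowtie2, edgeR and the build mm10, and the methods of the study name TopHat and cufflinks; the counting program, annotation and strand setting are not given in the sources used here. Rows that share a symbol (35 symbols) were summed. Samples were grouped by GEO's labels.

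The 10 members and all gene lists were chosen with earlier results of these data known. CPM used TMM factors of all 18 libraries. Each comparison was fitted on its own groups over all genes kept by filterByExpr with the quasi-likelihood test of edgeR 4.0.16 (R 4.3.3) and Benjamini-Hochberg adjustment over all genes; an adjusted p under 0.05 was called. The difference between cell types was an interaction term over all 18 libraries. DESeq2 1.42.0 and limma 3.58.1 (voom) were alternatives, beside RLE and upper-quartile factors, leaving out Rn45s, all genes with at least 1 read, genes averaging at least 10 reads, the replicate number as a block, 1 fit of all 4 groups, and leaving out each library. Paralog ratios were log2 of reads with 0.5 added, tested by exact two-sided permutation tests (scipy 1.17.1) and adjusted over 16 tests. Named pathway genes were up to 4 per list and comparison with the smallest p among those called; the 3 genes most alike to Lats2, Yap1 and Wwtr1 were taken among genes averaging at least 10 CPM. Ctgf in the 2-group comparisons of genotype and the single marker genes (Esam, Lyz1, Dmbt1, Krt19, Col3a1 and Cd34) were added after their values were seen. The fits across genes were tested on simulated data.

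Totals were 5361250 to 10549233 counts per library, and floors of 3 counts cover counting error only. No 2 libraries were identical, and replicates differed by more than sampling noise. Gene positions come from GENCODE for GRCm38, and promoter windows from RefSeq for GRCm38.p6.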

Additional observations from a re-analysis of the deposited data

Results flagged for a closer look

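A library stood far from the rest of its own group by Dixon's criterion in 11 of 66 groups of values examined, where chance alone gives about 3.3. Yap1 was 205.2 CPM in WT IntSC replicate 2, against 101.3 to 138.3 CPM in the other WT IntSC libraries. The same library had 0 Lats1 reads, and its log2 ratio of Lats2 over Lats1 was 9.90 against 0.89 to 2.38 in the others. Mob1a was 11.2 CPM in WT IntSC replicate 3 against 0 to 2.89 CPM in the others. Mob1b was 11.04 CPM in KO IntSC replicate 4 against 1.20 to 3.60 CPM, and 0.123 CPM (1 read) in WT LEC replicate 2 against 0 in the others.

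Summed marker levels stood apart in 6 cases. Stromal markers were 2498 CPM in WT LEC replicate 1 against 907 to 1092 CPM in the other WT LECs. Epithelial markers were 158.7 CPM in WT IntSC replicate 6 against 5.39 to 34.1 CPM. Paneth markers were 112.5 CPM in KO IntSC replicate 5 against 38.1 to 47.4 CPM, and 0.740 CPM in WT LEC replicate 2 against 0 to 0.100 CPM. Leukocyte markers were 146.3 CPM in WT LEC replicate 4 against 72.6 to 82.7 CPM. Glial and neuronal markers were 22.0 CPM in KO IntSC replicate 3 against 7.90 to 10.6 CPM.

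The KO-minus-WT difference of Ctgf and that of Crim1 differed between IntSCs and LECs by the interaction test of edgeR, by 5.36 (adjusted p = 0.00750) and by 1.73 (adjusted p = 0.0201) on the log2 scale. KO exceeded WT for Ctgf in IntSCs and lay below WT in LECs.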

How the results depend on the processing

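Of 48 log2 fold changes of members under 939 alternatives in all, 868 kept their direction and 71 reversed, 65 of them with a size below 0.4 as reported, and 16 changed their side of the threshold. The 1 member called in WT LECs against WT IntSCs (Wwtr1) became 0 with DESeq2, RLE factors, upper-quartile factors, no filter on low counts and the replicate block, and 0 to 1 when a library was left out (Wwtr1 from 0.65 to 1.01); it was kept without WT LEC replicate 1 and without WT IntSC replicate 2. In KO LECs against KO IntSCs the 1 call became 2 with limma-voom, which added Wwtr1, and 0 with the replicate block. For the difference between cell types 0 calls became 0 to 1 when a library was left out (Lats2, from 0.91 to 2.20). No paralog ratio passed with 1 added to each count in place of 0.5.

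Counts of all genes called moved further. KO against WT IntSCs had 183, which became 376 with DESeq2, 27 with all 4 groups in 1 fit, 122 with the replicate block and 99 to 186 without a library. KO against WT LECs had 7 (3 higher, 4 lower), which became 309 with DESeq2 (84 higher, 225 lower), 12 with limma-voom, 32 without a filter, 20 with a mean count of at least 10, 3 with the replicate block, 538 with all 4 groups in 1 fit and 0 to 16 without a library. WT LECs against WT IntSCs had 2763 (1596 with the block, 2233 to 2889 without a library), and KO LECs against KO IntSCs 3302 (895 with the block, 2557 to 3320 without a library). The difference between cell types had 238, which became 1023 with DESeq2, 143 with limma-voom, 16 with the block and 161 to 461 without a library. For pathway genes, KO against WT IntSCs went from 4 calls to 6 with DESeq2, 5 with limma-voom and 1 with all 4 groups in 1 fit. KO LECs against KO IntSCs went from 7 higher and 17 lower to 1 and 6 with the block and to 7 and 28 with limma-voom. KO against WT LECs went from 0 to 2 with all 4 groups in 1 fit and to 1 with DESeq2, without a filter and with a mean count of at least 10, and the difference between cell types from 2 to 5 with DESeq2 and 1 with the block. All 613 alternatives of 33 named pathway values kept their direction, and 38 changed their side of the threshold. The causes were not tested.

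Of the 71 reversals, 6 concerned differences of 0.4 or more as reported, among them Stk4 in LECs (1.19) and in the difference between cell types (-1.02). In KO against WT IntSCs limma-voom gave 0.78 for Lats1, 0.0127 for Stk3 and 0.37 for Mob1a, and the replicate block 0.40 for Lats1 and 0.0545 for Nf2. In KO against WT LECs Stk4 was -0.25 with limma-voom and -0.0631 with the block, and Wwtr1 was 0.00575 with DESeq2, 0.00574 with RLE factors, 0.0158 with limma-voom and 0.17 with the block. In WT LECs against WT IntSCs Mob1a was 1.95 with limma-voom and 0.60 with the block, and in KO LECs against KO IntSCs Yap1 was -0.0237 with upper-quartile factors. For the difference between cell types, Lats1 was 0.16 with limma-voom and 0.25 with the block, Stk4 was 0.44 with limma-voom, Sav1 was -0.00617 with DESeq2, -0.00560 with RLE factors, -0.0331 with limma-voom and -0.0851 with the block, and Wwtr1 was -0.0419 with DESeq2, -0.0417 with RLE factors, -0.00780 without Rn45s and -0.24 with the block.

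Leaving out 1 library reversed some directions over these ranges. KO against WT IntSCs: Lats1 -0.39 to 0.11, Stk3 -0.27 to 0.19, Nf2 -0.0987 to 0.0734 and Wwtr1 -0.16 to 0.14. KO against WT LECs: Stk3 -0.58 to 0.46, Yap1 -0.19 to 0.36 and Wwtr1 -0.19 to 0.13. WT LECs against WT IntSCs: Mob1a -0.41 to 1.35 and Nf2 -0.0366 to 0.33. KO LECs against KO IntSCs: Stk4 -0.89 to 0.51 and Yap1 -0.30 to 0.23. Difference between cell types: Stk3 -0.45 to 0.59, Sav1 -0.14 to 0.34 and Wwtr1 -0.11 to 0.25. Lats2 over Lats1 ratios moved from -0.71 to 1.09 (KO against WT IntSCs) and -1.29 to 0.39 (KO LECs against KO IntSCs), Wwtr1 over Yap1 from -0.34 to 0.25 (KO against WT LECs), and Stk3 over Stk4 from -0.41 to 0.22, -3.88 to 3.18, -1.24 to 0.65 and -4.45 to 2.61.

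Replicate numbers of the labels gave little sign of pairing. Deviations of same-numbered libraries correlated at a mean of 0.03 in IntSCs and -0.003 in LECs across genotypes. Between the cell types the mean was -0.0016 in KO and 0.0387 in WT libraries. The 4 WT pairs lay at 0.0173 to 0.0476, inside the range of differently numbered libraries (-0.0599 to 0.0626, mean -0.0077). So few pairs cannot settle whether WT LEC and IntSC libraries were paired, and the block is given here only. Mob1a, Mob1b and, in LECs, Stk3 had few or no reads in single libraries, and these were not the shallowest libraries throughout: WT LEC replicate 4 held 2 Stk3 reads of 10374749 counts and WT LEC replicate 2 held 136 of 7464241.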
